A study of Arabidopsis thaliana with 6 samples.

Results

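The genes described here are 57 cytosolic ribosomal protein genes of Arabidopsis thaliana, 34 for the small (40S) and 23 for the large (60S) ribosomal subunit. They were taken by locus from the 38064 genes counted in 6 RNA libraries, and 56 of them had enough reads to be tested. The study compared a double mutant of the BCL-DOMAIN HOMOLOG genes, whose products are linked by the series title to the stability of the SWI/SNF chromatin remodelling complex, with its wild type. The bdh1-1 bdh2-1 seedlings (bdh, 3 libraries) carried both mutant alleles, and the Col-0 seedlings (WT, 3 libraries) carried neither. Both genotypes were kept in the dark for 5 days on plates of diluted Murashige and Skoog medium at 22 degrees, and received no other treatment. The sample labels name whole etiolated seedlings as the tissue and the design text names hypocotyls, the elongated seedling stems. The RNA is bulk RNA, so more transcript per cell and a larger share of cells rich in ribosomes cannot be told apart.

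Cytosolic ribosomes translate the messenger RNAs exported from the nucleus, and each is built from ribosomal RNA and a large set of proteins used in near-equal numbers. In Arabidopsis each protein type is encoded by a small family of very similar genes, and the family members are often expressed at different levels. Their promoters are known for a pair of short elements, the telo-box (AAACCCTA) and site II (TGGGCC or TGGGCT). The target of rapamycin (TOR) kinase, a growth regulator, acts on ribosome production and phosphorylates ribosomal protein S6 through S6 kinase.

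The promoters of 4 of the genes are printed, chosen for their fold changes or a shared annotation. AT5G39850, annotated as ribosomal protein S4, had the highest fold change among the 40S genes, and EMB2296, of the ribosomal protein L2 family, the highest among the 60S genes. EMB1080 and AT4G30800 share an annotated product, a nucleic acid-binding protein with an OB-fold, and AT4G30800 is the only tested gene of the 57 with a negative fold change as counted. Each sequence runs 5′ to 3′ from 220 bases before to 30 bases after the gene start in the RefSeq annotation of TAIR10.1, and capitals mark a telo-box or a site II element on either strand. In the order printed, they lie at chr5:15949690-15949939 on the plus strand, chr2:7836847-7837096 on the plus strand, chr3:18142252-18142501 on the minus strand and chr4:15000740-15000989 on the plus strand.
AT5G39850: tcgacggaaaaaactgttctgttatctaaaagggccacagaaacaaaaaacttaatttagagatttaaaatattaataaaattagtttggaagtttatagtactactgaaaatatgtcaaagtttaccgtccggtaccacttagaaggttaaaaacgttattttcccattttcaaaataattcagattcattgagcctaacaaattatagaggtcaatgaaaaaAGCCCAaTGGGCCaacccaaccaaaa
EMB2296: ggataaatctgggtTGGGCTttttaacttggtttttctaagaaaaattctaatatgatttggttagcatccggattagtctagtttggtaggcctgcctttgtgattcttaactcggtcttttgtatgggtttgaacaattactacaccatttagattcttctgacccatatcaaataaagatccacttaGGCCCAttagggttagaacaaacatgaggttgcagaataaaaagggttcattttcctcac
EMB1080: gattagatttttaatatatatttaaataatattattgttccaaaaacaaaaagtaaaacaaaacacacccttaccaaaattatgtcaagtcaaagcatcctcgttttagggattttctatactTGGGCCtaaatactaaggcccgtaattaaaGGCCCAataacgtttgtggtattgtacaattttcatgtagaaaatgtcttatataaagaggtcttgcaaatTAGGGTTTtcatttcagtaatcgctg
AT4G30800: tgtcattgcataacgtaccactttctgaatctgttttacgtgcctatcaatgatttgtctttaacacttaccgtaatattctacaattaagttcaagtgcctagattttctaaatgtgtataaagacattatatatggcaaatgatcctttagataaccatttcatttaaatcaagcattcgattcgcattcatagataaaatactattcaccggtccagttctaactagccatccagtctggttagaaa
AT5G39850 holds a pair of site II matches just after its start and no telo-box, and EMB2296 holds a site II match near the start and another far upstream. EMB1080 holds a telo-box and a pair of site II matches, and AT4G30800 holds neither element in its 300-base window.

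The libraries held 40876788 to 44982000 counts each. The mutated genes were checked first. The annotation does not pair the BDH names with loci, and AT4G22320 and AT5G55210 were taken as the BDH loci from published knowledge. The bdh libraries had 8, 12 and 15 counts of AT4G22320, and the WT libraries had 169, 143 and 148. AT5G55210 had 7, 14 and 22 counts in bdh libraries, against 693, 575 and 755 in WT libraries. Both loci were low in every bdh library. Of 4 markers of dark-grown seedlings (PORA, PORB, HLS1 and PIF3), 4 were higher in bdh, against 12.1% of all tested genes. Without bdh library 1, or without WT library 1, 3 of the 4 passed (5.06% and 6.28% of all tested genes higher). Root markers were near 0, with a summed level of 1.21 to 5.69 CPM over 5 genes in any library (CPM, counts of a gene per 1000000 counts of its library). Of 7 markers of dividing cells, 0 passed the test in either direction as counted. When each library's trend with transcript length was taken out, 1 of the 7 was lower, against 9.76% of all tested genes. Seed maturation markers summed to 1.32, 2.28 and 1.85 CPM in bdh libraries, against 0.663, 65.7 and 90.6 CPM in WT libraries, so that WT library 1 stood apart from the other WT libraries. Of the 9 seed maturation genes, 4 were tested and 3 fell.

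Most of the ribosomal protein genes were modestly higher in the mutant. Transcripts of 40 of the 56 tested genes rose in bdh seedlings, 0 fell and 16 did not pass the test (71.4% higher). Among all 20791 tested genes 12.1% were higher and 11.3% were lower, at a Benjamini-Hochberg adjusted p under 0.05 in edgeR's quasi-likelihood test. The median log2 fold change, bdh over WT, was 0.37 over the 56 genes, which is 1.29-fold, with an interquartile range of 0.31 to 0.43. Over all tested genes the median was 0.00092. The fold changes ran from -0.17 to 0.89, and 55 of 56 were above 0. Only 2 of the genes differed by more than 1.5-fold, and 44 differed by more than 1.2-fold. The typical standard error of a log2 fold change was 0.10.

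Together the 57 genes took 7754, 7781 and 7437 CPM in bdh libraries, against 5623, 6339 and 6061 CPM in WT libraries. That is 0.766% ± 0.019 of the TMM-scaled library total in bdh and 0.601% ± 0.036 in WT (SD, n = 3 each). Every bdh library lay above every WT library in this sum, and the ratio of the means was 1.27. An exact permutation test of 3 against 3 libraries cannot give a two-sided p below 0.1. Gene by gene, the bdh libraries all lay above the WT libraries for 50 of the 56 tested genes (89.3%), against 20.8% of all tested genes.

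The rise was seen in each bdh library, and the WT libraries differed among themselves. The median gene lay 0.19, 0.21 and 0.15 log2 units above its own 6-library mean in bdh libraries 1, 2 and 3, and at -0.26, -0.11 and -0.16 from it in WT libraries 1, 2 and 3. WT library 1 was the lowest for 41 of the 56 genes, and bdh library 2 was the highest for 28. WT library 1 is also the WT library with few seed maturation transcripts, and the part of this difference in the result was not tested. Without WT library 1, 15 genes passed the test (6.28% of all tested genes higher) with a median log2 fold change of 0.32. Without bdh library 1, 7 passed (5.06%) with a median of 0.37, and without WT library 3, 18 passed (6.88%) with a median of 0.38. Without bdh library 2, bdh library 3 or WT library 2, 34 (11.6%), 29 (8.85%) and 42 (13.5%) genes passed.

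**Figure D1:**
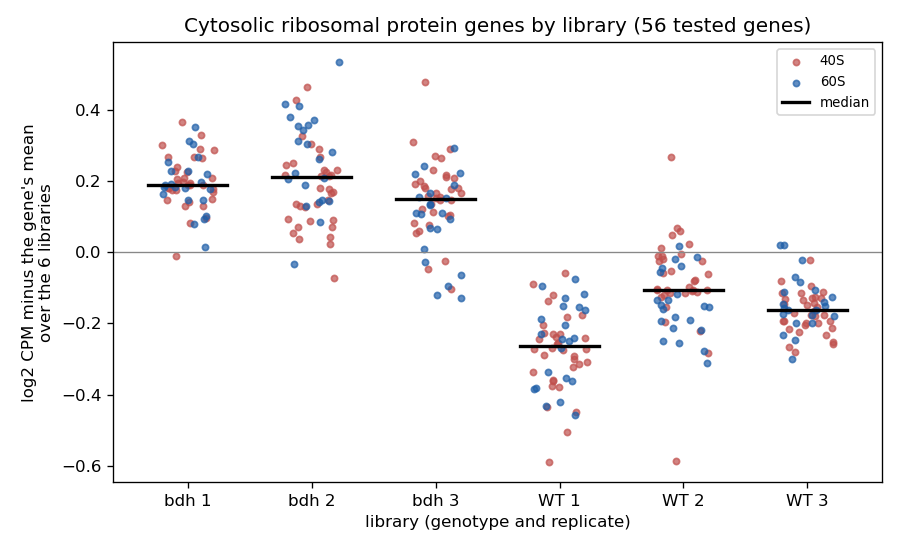
Each point is 1 of the 56 tested genes, placed on the vertical axis by its log2 CPM in a library minus its mean over the 6 libraries, with 40S genes in red and 60S genes in blue, and black bars for the median of each library. The medians of the bdh libraries are 0.19, 0.21 and 0.15, all above 0, and those of the WT libraries are -0.26, -0.11 and -0.16, all below it.

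Ribosomal protein transcripts are short, and short transcripts as a class had a positive median log2 fold change. The 56 tested genes have a median exonic length of 1128 bases, against 1758 bases over the 20692 tested genes with a known length. Across these genes the log2 fold change fell with length (Spearman's rho -0.32, across genes, which are not independent replicates). The fall was not steady at the short end. The median log2 fold change was 0.14 for genes under 750 bases, 0.20 for genes of 750 to 1000 bases and -0.27 for genes of 3000 bases or more. Within the 56 ribosomal protein genes the rank correlation of fold change and length was -0.01. The cause of the trend with length was not tested.

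The 56 genes were therefore set beside other genes of like length. Among 5962 other tested genes between 858 and 1523 bases, 18.4% were higher in bdh and the median log2 fold change was 0.13. Among the 943 of these whose level also lay in the range of the ribosomal protein genes (42.4 to 199 CPM), 29.0% were higher and the median was 0.17. Without every ribosomal protein gene on the lists, 887 genes remained, with 27.1% higher and a median of 0.16. All bdh libraries lay above all WT libraries for 38.7% of the 943 genes. The ribosomal protein genes had a larger share of higher genes and a larger median than the other genes in these ranges of length and level. Both ranges run from the 10th to the 90th percentile of the 56 genes, so some of the 56 lie outside them.

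When each library's own trend with length was taken out of the counts, the same comparison gave smaller values. Of the 56 genes 11 rose and 0 fell (19.6% higher), against 10.1% of all tested genes higher and 9.76% lower. Of the 943 genes of like length and level 13.8% were higher. The median log2 fold change was 0.21, against -0.0073 over all tested genes and 0.04 over the 943 genes, and 54 of 56 genes stayed above 0. All 11 were among the 40 genes that rose without this correction. They were AT5G39850, RPS6A, RPS5B, AT5G15200 and AT2G32060 of the small subunit and EMB2296, RPL5A, RPL23AA, BBC1, PGY1 and RPL18 of the large subunit, with log2 fold changes of 0.27 to 0.72. The count moved with single libraries. It was 3 (4.9% of all tested genes higher), 6 (9.82%) and 13 (7.99%) without bdh libraries 1, 2 and 3, and 4 (5.4%), 14 (11.2%) and 4 (6.01%) without WT libraries 1, 2 and 3.

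**Figure D2:**
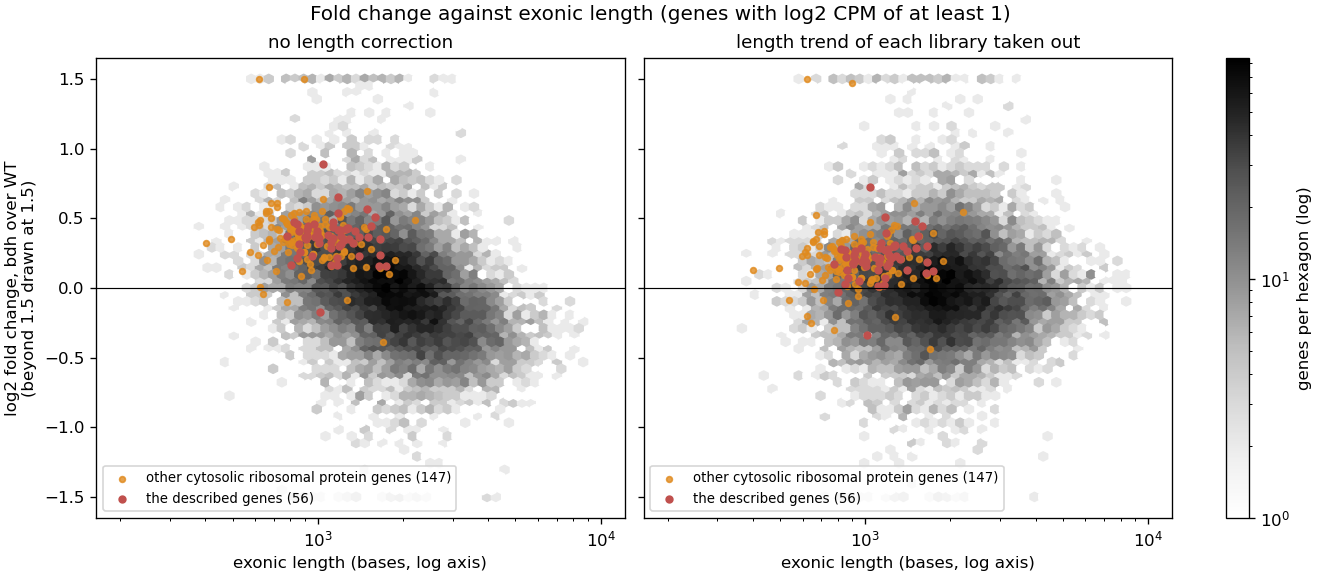
The log2 fold change, bdh over WT, of each gene is drawn against its exonic length on a log axis, as counted (left) and after each library's trend with length was removed (right), with grey hexagons for tested genes of at least 1 on the log2 CPM scale, red points for the 56 described genes and orange points for other cytosolic ribosomal protein genes. On the left the grey cloud slopes down with length, while on the right it lies level around 0 and the red points keep a median of 0.21.

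**Figure D3:**
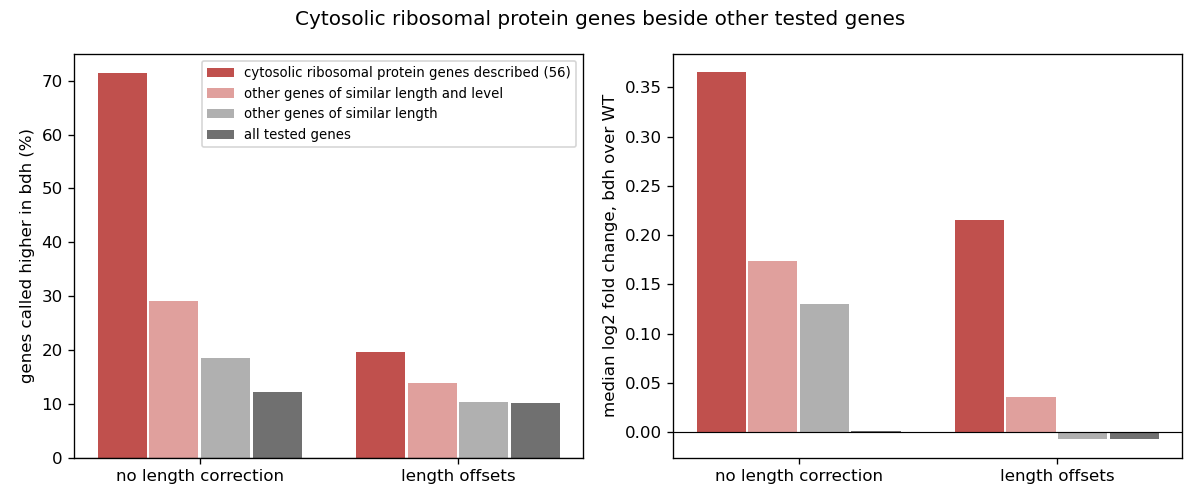
Bars give the share of genes higher in bdh in percent (left) and the median log2 fold change, bdh over WT (right), for the 56 described genes, 943 other genes of similar length and level, 5962 other genes of similar length and all 20791 tested genes, with and without offsets for length. The described genes have the tallest bar in each of the 4 groups of bars, 71.4% and 19.6% on the left and 0.37 and 0.21 on the right.

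Of the 34 genes of the 40S subunit, which binds messenger RNA and decodes it, 26 rose and 0 fell (76.5% higher, against 12.1% of all tested genes), with a median log2 fold change of 0.36. With the length trend taken out 5 of them rose (14.7%, against 10.1% of all tested genes and 13.8% of genes of like length and level), with a median of 0.21. That share is close to the one among genes of like length and level. The 40S genes together took 4475 ± 82.4 CPM in bdh and 3535 ± 236 CPM in WT (SD, n = 3 each).

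AT5G39850 moved most. This gene lies at chr5:15949910-15951475 on the plus strand and had 16.3, 17.5 and 17.7 CPM in bdh libraries, against 8.18, 8.20 and 11.4 CPM in WT libraries. All bdh libraries lay well above all WT libraries. The log2 fold change was 0.89 ± 0.14 (SE, adjusted p = 0.0030, edgeR's quasi-likelihood test), and 0.72 with the length trend taken out (adjusted p = 0.0050). It is a minor copy: per kilobase of exon it stood at 16.5 ± 0.71 CPM in bdh and 8.91 ± 1.81 CPM in WT, the 54th highest of the 56 genes in WT. Its paralog AT5G15200, also annotated as ribosomal protein S4, had 348, 325 and 329 CPM in bdh libraries, against 228, 278 and 247 CPM in WT libraries, with no overlap. That gene rose by 0.41 ± 0.10 on the log2 scale (SE, adjusted p = 0.018, edgeR's quasi-likelihood test).

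RPS6A and RPS6B encode S6, the ribosomal target of S6 kinase. RPS6A had 105, 118 and 93.9 CPM in bdh libraries, against 74.0, 71.9 and 72.8 CPM in WT libraries. RPS6B had 209, 223 and 177 CPM in bdh libraries, against 166, 157 and 173 CPM in WT libraries. Neither gene's groups overlapped, and in both bdh library 2 was the highest and bdh library 3 the lowest of the bdh libraries. RPS6A rose by 0.54 ± 0.10 on the log2 scale (SE, adjusted p = 0.0057, edgeR's quasi-likelihood test), and RPS6B differed by 0.30 ± 0.11 without passing the test (adjusted p = 0.065). The difference between these changes was not tested.

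The genes with the OB-fold annotation had very different levels. EMB1080, named for the embryo defect of its mutant, had 80.8, 74.6 and 72.2 CPM in bdh libraries, against 51.6, 59.3 and 52.8 CPM in WT libraries. AT4G30800 had 1.66, 1.57 and 1.53 CPM in bdh libraries, against 1.59, 2.12 and 1.65 CPM in WT libraries. EMB1080 lay higher in all bdh libraries and rose by 0.48 ± 0.09 (SE, adjusted p = 0.0073, edgeR's quasi-likelihood test). The groups of AT4G30800 overlapped, and its log2 fold change of -0.17 ± 0.21 did not pass (adjusted p = 0.58). This gene had the lowest level per kilobase of the tested genes. Its promoter window lacks both elements, as do the windows of 5 genes that rose.

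RPS5A and RPS5B encode a protein needed for cell division and normal leaf growth in Arabidopsis. RPS5A had 202, 193 and 211 CPM in bdh libraries, against 179, 189.7 and 171 CPM in WT libraries. RPS5B had 69.1, 61.3 and 64.8 CPM in bdh libraries, against 42.9, 53.7 and 48.7 CPM in WT libraries. Both lay higher in all bdh libraries, but the spacing relative to the level was wider for RPS5B. RPS5B rose by 0.43 ± 0.10 (SE, adjusted p = 0.017, edgeR's quasi-likelihood test), and RPS5A differed by 0.17 ± 0.09 (adjusted p = 0.19).

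The S18 and S13 genes are known from Arabidopsis mutants with pointed first leaves. RPS18A, the gene called POINTED FIRST LEAF, had 52.7, 55.4 and 54.8 CPM in bdh libraries, against 40.2, 41.6 and 44.0 CPM in WT libraries, and rose by 0.37 ± 0.08 (SE, adjusted p = 0.013, edgeR's quasi-likelihood test). Its paralog RPS18C had 144, 135 and 135 CPM in bdh libraries, against 111, 137 and 122 CPM in WT libraries. The RPS18C groups overlapped through WT library 2, and its difference of 0.17 ± 0.10 did not pass (adjusted p = 0.24). RPS13A and its paralog AT3G60770 both rose, by 0.36 and 0.42.

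Among the remaining small-subunit genes, 3 of 3 in the S7e family (AT1G48830, AT3G02560 and AT5G16130) rose, by 0.34 to 0.38. Of 3 in the S3 family, which lines the messenger RNA entry channel, only AT2G31610 passed, at 0.31, while AT3G53870 and AT5G35530 stood at 0.28 and 0.22 (adjusted p = 0.052 and 0.11, edgeR's quasi-likelihood test). Of 3 in the S4 (RPS4A) family, AT2G17360 and AT5G58420 rose, by 0.38 and 0.36, and AT5G07090 stood at 0.23. In the S10, S12 and S19 types, 2 of 2 genes rose in each, by 0.32 to 0.44. AT2G41840, of the ribosomal protein S5 family, had the highest level per kilobase of all tested genes described here, 332 ± 11.9 CPM in bdh and 267 ± 18.1 CPM in WT (SD, n = 3 each), and rose by 0.32. AT5G20290, of the S8e family, was the third highest per kilobase, with 282 ± 25 CPM in bdh and 224 ± 8.9 CPM in WT, and rose by 0.33. RPS15A stood at 0.35 and did not pass (adjusted p = 0.064). The locus AT1G07780 matches 168 of its bases at 99.4% identity, so reads could be split between them.

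**Figure D4:**
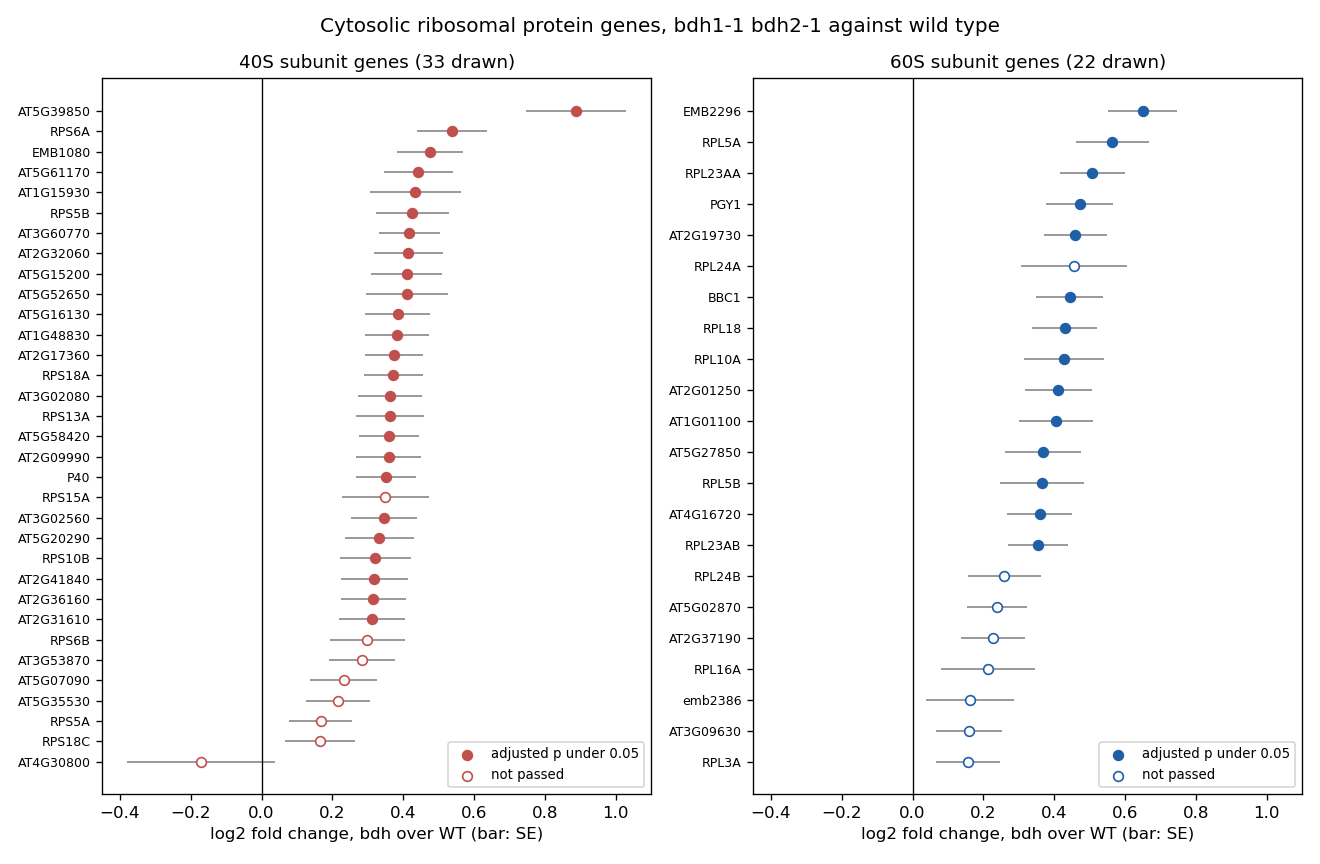
Points give the log2 fold change, bdh over WT, of 33 of the 34 genes of the 40S subunit (left) and the 22 tested genes of the 60S subunit (right), with bars for the standard error and filled points for an adjusted p under 0.05. AT5G39850 at 0.89 leads the 40S genes and EMB2296 at 0.65 the 60S genes, AT4G30800 at -0.17 is the only point left of 0, and the interquartile range of all 56 is 0.31 to 0.43.

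Of the 22 tested genes of the 60S subunit, which forms the peptide bond, 14 rose and 0 fell (63.6% higher, against 12.1% of all tested genes), with a median log2 fold change of 0.39. With the length trend taken out 6 of them rose (27.3%, against 10.1% of all tested genes and 13.8% of genes of like length and level), with a median of 0.27. Together the 60S genes took 3182 ± 129 CPM in bdh and 2473 ± 135 CPM in WT (SD, n = 3 each). The difference between the subunits was not tested.

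EMB2296 lies at chr2:7837067-7838476 on the plus strand, and its mutant fails in embryo development. It had 257, 262 and 238 CPM in bdh libraries, against 146, 173 and 163 CPM in WT libraries. The lowest bdh library lay far above the highest WT library. The gene rose by 0.65 ± 0.10 (SE, adjusted p = 0.0023, edgeR's quasi-likelihood test), and by 0.51 with the length trend taken out (adjusted p = 0.0052).

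RPL5A and RPL5B encode L5, which carries the 5S ribosomal RNA into the large subunit. RPL5A had 172, 184 and 149 CPM in bdh libraries, against 107, 114 and 120.2 CPM in WT libraries. RPL5B had 115, 135 and 97.1 CPM in bdh libraries, against 88.0, 87.5 and 93.9 CPM in WT libraries. Neither overlapped, and bdh library 3 was the lowest of the bdh libraries in both, close to WT for RPL5B. RPL5A rose by 0.56 ± 0.10 (SE, adjusted p = 0.0054, edgeR's quasi-likelihood test). RPL5B rose by 0.37 ± 0.12, at the edge of the threshold (adjusted p = 0.0499), and matches the locus AT5G40130 over 183 bases at 95.6% identity.

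RPL23AA and RPL23AB encode a protein beside the exit of the peptide tunnel. RPL23AA had 67.2, 72.2 and 60.3 CPM in bdh libraries, against 46.8, 46.7 and 46.9 CPM in WT libraries. RPL23AB had 27.0, 28.4 and 27.0 CPM in bdh libraries, against 21.8, 21.2 and 21.5 CPM in WT libraries. The WT libraries were nearly level for both genes, and all bdh libraries lay above them. Both rose, by 0.51 ± 0.09 and 0.35 ± 0.08 (SE, adjusted p = 0.0053 and 0.017, edgeR's quasi-likelihood test). AT5G39850, EMB2296 and RPL23AA were the 3 genes past the threshold in all 16 alternative settings fixed for the comparison.

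PGY1 (PIGGYBACK1), which shapes leaf polarity in Arabidopsis, had 164, 151 and 154 CPM in bdh libraries, against 102, 119 and 117 CPM in WT libraries. RPL10A, also called SAC52, had 418, 395 and 439 CPM in bdh libraries, against 266, 345 and 320.3 CPM in WT libraries. WT library 1 was the lowest for both genes, and neither overlapped. PGY1 rose by 0.47 ± 0.09 and RPL10A by 0.43 ± 0.11 (SE, adjusted p = 0.0082 and 0.025, edgeR's quasi-likelihood test). AT2G19730, of the L28e family, rose by 0.46, the L18 genes RPL18 and AT5G27850 rose by 0.43 and 0.37, and BBC1 rose by 0.44. AT5G27850 overlaps the opposite-strand gene AT5G27860 over 256 bases, and AT5G27860 fell by 0.52 on the log2 scale. AT1G01100, an acidic protein of the 60S family, rose by 0.41.

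Some abundant large-subunit genes had small fold changes. RPL3A, for a protein that reaches close to the peptidyl transferase centre, had 324, 339 and 308 CPM in bdh libraries, against 291, 279 and 302 CPM in WT libraries. AT3G09630, an L4 gene, had 191, 165 and 179.8 CPM in bdh libraries, against 154, 171 and 155 CPM in WT libraries. The gene emb2386, of the L19e family, had 187, 235 and 169 CPM in bdh libraries, against 173, 167 and 188 CPM in WT libraries. AT3G09630 and emb2386 overlapped between genotypes, and the high value of emb2386 was in bdh library 2 alone. Each of the 3 genes had a log2 fold change of 0.16 and did not pass (adjusted p = 0.23 to 0.36, edgeR's quasi-likelihood test). The other L4 gene, AT5G02870, stood at 0.24 (adjusted p = 0.066), and RPL16A, the large-subunit gene with the lowest level tested, at 0.21 (adjusted p = 0.26).

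The L24 genes varied among the bdh libraries. RPL24B (STV1), which in Arabidopsis aids reinitiation of translation after upstream reading frames, had 71.8, 83.8 and 66.0 CPM in bdh libraries, against 62.0, 59.0 and 64.1 CPM in WT libraries. RPL24A had 33.2, 41.2 and 26.0 CPM in bdh libraries, against 24.8, 22.7 and 25.7 CPM in WT libraries. The bdh libraries lay above WT for both, but bdh library 3 only just. Their log2 fold changes of 0.26 ± 0.10 and 0.46 ± 0.15 did not pass (SE, adjusted p = 0.094 and 0.052, edgeR's quasi-likelihood test). RPL27AB had 0 counts in all 6 libraries and was not tested, and 801 of its 815 bases overlap AT1G23300 on the opposite strand, which itself had at most 2 counts.

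Of the 57 genes 38 belong to 17 types with at least 2 genes here, and 9 of these types had all their genes higher, 6 had some and 2 (L4 and L24) had none. Summed over a type, the ratio of bdh to WT ran from 1.14 for L4 to 1.40 for L5. The share a gene took of its type's CPM did not overlap between genotypes for 14 of the 38 genes, in 8 types. In a type of 2 genes the shares mirror each other, so a single shift is counted for both genes. No such count was made for other gene families, so the 14 have no background to be read against. The largest shift was 3.61 percentage points. RPS6A made up 34.3% ± 0.654 of S6 transcripts in bdh and 30.6% ± 0.920 in WT, RPS5B 24.4% ± 1.05 of S5 transcripts in bdh and 21.2% ± 1.58 in WT, and RPL5A 59.4% ± 1.5 of L5 transcripts in bdh and 55.9% ± 0.826 in WT (SD, n = 3 each). The minor copy AT5G39850 made up 4.90% ± 0.361 of its type's transcripts in bdh and 3.58% ± 0.787 in WT. The shares of these 4 genes did not overlap between genotypes, and with 3 libraries each an exact permutation test cannot go below p = 0.1.

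The promoters share the elements named at the outset. A telo-box lay within 250 bases before and 50 after the start in 30 of the 57 genes (52.6%), against 6.22% of the 27443 protein-coding genes. A site II element lay there in 46 genes (80.7%), against 21.7%, and both in 25 genes (43.9%), against 2.20%. Matches were counted on both strands, and overlapping site II matches (TGGGCCCA reads as one on each strand) were counted separately. The 122 site II matches centred at a median of 42 bases before the start, and the 34 telo-box matches at a median of 6 bases after it. A difference in fold change between genes with and without the elements was not tested. A telo-box was held by 21 of the 40 genes that rose and 8 of the 16 others, and the median log2 fold change was 0.36 with a telo-box and 0.41 without one, or 0.20 and 0.27 with the length trend taken out. With a site II element it was 0.36, and without one 0.37, and 68.9% of tested genes with the element and 81.8% of those without it rose. Of the 6 genes with neither element, 5 rose. Among other tested genes, 13.3% of those with a telo-box and 13.3% of those with a site II element were higher in bdh. A match is a description of these letters and shows no binding.

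**Figure D5:**
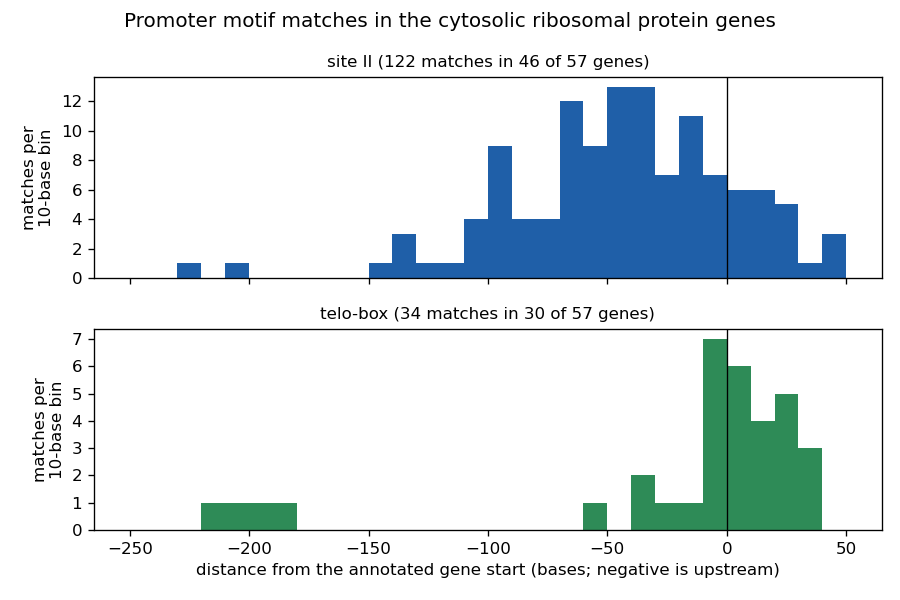
Histograms give the number of site II (top, 122 matches in 46 genes) and telo-box (bottom, 34 matches in 30 genes) matches in bins of 10 bases by the distance of the match's centre from the annotated gene start, with negative values upstream. Site II matches spread over the 100 bases before the start around a median of -42, and telo-boxes gather at the start with a median of 6.

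Other parts of the translation machinery were read the same way, against 12.1% higher and 11.3% lower over all genes as counted, and 10.1% higher and 9.76% lower with the length trend taken out. Of 147 tested genes among 157 further cytosolic ribosomal protein genes, 93 rose and 0 fell, with a median log2 fold change of 0.39, and with the length trend taken out 28 rose and 2 fell with a median of 0.22. As counted, the log2 fold changes of these 147 genes ran from -0.39 to 2.51, and AT3G60245, of a zinc-binding ribosomal protein family, rose by 0.72. Of 28 tested nuclear genes for plastid ribosomal proteins, which serve the etioplast's own ribosomes, 14 rose and 0 fell with a median of 0.34. With the length trend taken out 4 of these 28 rose, near the share over all genes in that fit, with a median of 0.18. Both lists had medians close to that of the 56 genes.

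Genes that build and regulate ribosomes had medians below 0 as counted. Of 27 ribosome biogenesis genes 2 rose, 4 fell and 21 did not pass, with a median log2 fold change of -0.11. With the length trend taken out 2 rose and 3 fell, with a median of 0.04. EDA7 and PPAN, a PETER PAN-like protein gene, fell by 0.84 and 0.76 on the log2 scale, and 12 of the 27 held a telo-box and 18 a site II element. Of 7 genes of TOR signalling 0 rose and 2 fell, with a median of -0.18. With the length trend taken out 0 rose and 1 fell, with a median of -0.05. TAP46, a TOR-linked phosphatase subunit, fell by 0.49 and TOR by 0.35, while TOR, whose exons span 8200 bases, stood at -0.02 with the length trend taken out (adjusted p = 0.91, edgeR's quasi-likelihood test). Of 20 translation factors 4 rose and 1 fell, with a median of 0.09. With the length trend taken out 5 rose and 0 fell, with a median of 0.07. As counted, RACK1C_AT, for a protein that docks on the 40S subunit, rose by 0.60, and PAB2, a poly(A)-binding protein, fell by 0.46.

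In the authors' deposited table, 44 of the 56 genes had a positive log2 fold change with an adjusted p under 0.05, 0 had a negative one, and the median was 0.33. Among all genes with an adjusted p in the authors' deposited table, 11.9% were higher in bdh.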

How the data were processed

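Per the labels' protocols, strand-specific poly(A) RNA libraries were made for the DNBSEQ platform. Per the submitters' processing notes the tools were STAR 2.7.10b, featureCounts of Subread 2.0.3 and DESeq2 1.38 with the build TAIR10; whether counting used strand is not given in the sources used here. The deposited counts are whole numbers for every gene in each library, neither normalized nor pooled. Per the file headers, the authors' deposited comparison gives for each gene its mean normalized count (signal averaged over libraries), the log2 fold change and error, and p-values before and after adjustment.

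The count fit used edgeR 4.0.16 (R 4.3.3). Low genes were removed by filterByExpr, TMM factors scaled the libraries, and bdh was compared with WT by glmQLFit and glmQLFTest with Benjamini-Hochberg adjustment over 20791 genes at 0.05. Standard errors were approximated as the size of the log2 fold change over the root of F. CPM values use the TMM factors. Length was corrected with offsets from a spline with 4 degrees of freedom of log2 CPM on log exonic length in each library, fitted on genes above 1 log2 CPM. Genes of like length and level lie between the 10th and 90th percentiles of the described genes. The script was tested on simulated data. Names, lengths and promoters come from the RefSeq annotation of TAIR10.1; the fixed rule named the highest and lowest 8 fold changes, the highest 5 levels per kilobase, whole protein types and genes with known mutants. The genes, lists and tests were chosen with earlier results of these data known. The labels do not say that replicates came from separate cultures, so p-values measure the spread between these samples, which may be technical. Counts from 1 to 20 were even in 74.8% of cases, so some counts may stand for pairs of reads, which lowers the precision below that of the library totals, 40876788 to 44982000. Of the 57 genes 13 overlap another gene and 2 have a match of at least 100 bases at 95% identity elsewhere (AT2G32060 overlaps AT2G32050 over 133 bases of the same strand). Not every gene is named: 1 is counted in the totals and is not reported here. Alternatives tried were DESeq2 1.42.0, RLE or upper-quartile factors, other filters, halved counts, length and GC offsets, a replicate block and each library left out.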

Additional observations from a re-analysis of the deposited data

How the results depend on the processing

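The count of 40 higher genes was 38 to 45 with RLE or upper-quartile factors, DESeq2, either other filter or halved counts, and 0 genes were lower in each of these. The count was 11 with length offsets (median log2 fold change 0.21) and 12 with length and GC offsets (0.24, 10.3% of all tested genes higher). Replicate numbers were not used as pairs in the main fit. Same-numbered libraries deviated with correlations of 0.05, -0.28 and -0.17, and not every library correlated best with its own number. The 3 libraries of each genotype were centred on their mean, so these few values cannot exclude a shared batch. A replicate block gave 10 genes (5.64% of all tested genes higher), and the block with length offsets gave 3 (5.42%, median 0.21). With each library left out in turn the count ran from 7 to 42 and the median from 0.32 to 0.42. Length offsets with a library left out, added after seeing the data, gave counts of 3, 6 and 13 without bdh libraries 1, 2 and 3 (medians 0.22, 0.19 and 0.26) and 4, 14 and 4 without WT libraries 1, 2 and 3 (medians 0.19, 0.22 and 0.21). Of the 56 genes 50 kept a positive fold change in every setting. The log2 fold change of TOR, -0.35 as counted, turned positive at 0.00015 with length and GC offsets, and with length offsets at 0.025 without bdh library 2 and 0.058 without WT library 2. The cause of each change was not tested.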
